A study of Mus musculus with 7 samples.

Results

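The genes described here are 8 transcription factors that are known from work on retinal development as temporal identity or early competence factors: *Foxp1*, *Foxp2*, *Foxp4*, *Ikzf1*, *Ikzf4*, *Casz1*, *Pou2f1* and *Pou2f2*. They were taken by symbol, 8 of the 48440 genes in the count table. Because they were chosen with earlier results of these data known, and the study itself names *Foxp1* on these samples, their directions are not independent evidence. All 8 passed the expression filter and were among the 20019 genes tested. They were followed in 7 bulk RNA-seq libraries of whole mouse retina at embryonic day 16 (E16), each prepared from a pool of retinas. All groups carried *Chx10*-Cre, a Cre-GFP fusion driven by the *Chx10* promoter in retinal progenitors, so the deletion was limited to progenitors and their progeny. The WT group (genotype label Chx10Cre) was 1 library of 6 retinas. The Het group (Chx10-Cre;Ptbp1lox/WT) was 3 libraries of 5, 5 and 6 retinas. The KO group (Chx10-Cre;Ptbp1lox/lox), in which both copies of the *Ptbp1* promoter and first exon were flanked by loxP sites, was 3 libraries of 4, 4 and 6 retinas. The single WT library gives values without an error, and values of Het and KO libraries are listed in the order of their replicate numbers.

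Retinal progenitors give rise to the retinal cell types in an overlapping order, with ganglion cells, cones, horizontal cells and amacrine cells mostly before birth and rods, bipolar cells and Müller glia mostly later. Temporal identity factors are expressed by progenitors in a window of this sequence and make them competent to produce the cell types of that window. *Ikzf1* (Ikaros, a zinc finger protein related to the fly factor Hunchback) and *Foxp1* are known for the early window. *Casz1*, related to the fly factor Castor, is known for the middle and late window, and the POU factors *Pou2f1* and *Pou2f2* are known for promoting cones in the early window. PTBP1, the RNA-binding protein deleted here, represses neuronal exons in progenitors and is replaced by its relative PTBP2 as neurons differentiate. The comparison of KO with Het asked whether loss of *Ptbp1* in progenitors shifted these factors, and in particular the early ones (*Ikzf1* and the *Foxp* genes) against *Casz1*.

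The *Ikzf* and *Pou2f* genes form a pair each, and the part of their coding sequence that is most alike within the pair is shown to make clear how close the genes are and how far reads can be told apart. Within each pair the longest-coding transcripts were searched for the stretch of 60 coding bases with the most equal positions, passing over triplet repeats. Capitals mark positions at which the pair differs. The sequences are of the GRCm38 genome, read 5′ to 3′ on the coding strand.
Ikzf1 exon 6, chr11:11754051-11754110 (+): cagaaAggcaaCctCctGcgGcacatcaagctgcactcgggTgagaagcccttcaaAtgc
Ikzf4 exon 5, chr10:128640205-128640264 (−): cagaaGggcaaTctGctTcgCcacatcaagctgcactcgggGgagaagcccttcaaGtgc
Pou2f1 exon 10, chr1:165897665-165897724 (−): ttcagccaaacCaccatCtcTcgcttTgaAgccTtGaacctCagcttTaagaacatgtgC
Pou2f2 exon 9, chr7:25097433-25097492 (−): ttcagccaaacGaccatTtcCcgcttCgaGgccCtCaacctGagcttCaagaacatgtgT

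In these stretches 53 of 60 positions were equal in *Ikzf1* and *Ikzf4*, and 50 of 60 in *Pou2f1* and *Pou2f2*. Even so, the 8 factors, the *Foxp* genes included, were distinct from one another in nearly all words of 50 bases. This length was chosen without regard to the read length. Of all 50-base words in the annotated transcripts, 0 were shared with another of the 8 genes for *Foxp1*, *Foxp4*, *Ikzf1*, *Ikzf4*, *Casz1* and *Pou2f2*, and *Foxp2* and *Pou2f1* shared 4 words each with another of the 8. *Foxp4*, *Ikzf1* and *Casz1* shared 0% of their words on the same strand with any other gene, and the highest share was 2.42%, for *Foxp1*, mostly with the overlapping gene model *Gm20696*, which held at most 7 counts in a library. *Pou2f1* was the exception when strand is disregarded: 17% of its words lie in *Cd247*, a T cell receptor subunit gene that overlaps it on the opposite strand. Whether the authors' counting used strand is not given in the sources used here. *Cd247* held at most 44 counts in a library, against 6736 or more for *Pou2f1*.

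Counts on genes summed to between 120593979 and 171117305 per library. The targeted gene was lower in every KO library: *Ptbp1* was at 381 CPM (normalized counts, scaled to library size with TMM factors) in the WT library, at 210, 219 and 234 CPM in the Het libraries, and at 27.9, 6.04 and 46.9 CPM in the KO libraries. Its log2 fold change was -3.04 (edgeR quasi-likelihood test, adjusted p = 0.0316). Retinal progenitor markers, which define the labelled tissue at this age, were abundant in every library, and their summed level (7 genes, among them *Pax6* and *Rax*) was 4700 to 4790 CPM in Het and 4720 to 5040 CPM in KO. The cell cycle gene *Ccnd1* made up most of this sum, and the other 6 summed to 1810 to 1880 CPM in Het and to 1750 to 1780 CPM in KO, with every KO library below every Het library. The Het1 library stood apart by other tissue: 11 skeletal muscle markers summed to 348 CPM there against 9.17 to 12 CPM in the other 6 libraries, and pigmented cell markers to 422 CPM against 16.6 to 47.5 CPM. Lens markers did not set Het1 apart: 5 of them summed to 11.2 CPM in WT, to 20.9, 52.8 and 72.9 CPM in Het1, Het2 and Het3, and to 1.32, 3.62 and 39.0 CPM in KO1, KO2 and KO3. Values without Het1 are therefore given beside the results for the 8 genes. Because these are bulk samples, fewer cells of a type and less RNA per cell cannot be told apart. Nothing used here says whether the pools came from separate litters, so the p-values measure the spread between these libraries only.

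Of the 8 factors, *Foxp1* and *Foxp4* were lower in KO than in Het by edgeR's quasi-likelihood test, at an adjusted p below 0.05 and a change of more than 1.2-fold. The other 6 did not pass, and none was called higher. Over all 20019 genes tested, 7.22% were called, 3.21% lower and 4.01% higher, so 2 of 8 called lower stands beside a background of 3.21%. The log2 fold change was negative for 6 of the 8 factors and positive for 2, with a median of -0.15 beside -0.00 over all genes tested. In *Foxp1*, *Foxp4* and *Pou2f2* every KO library was below every Het library, a pattern found in 17.7% of all genes tested, while 36.3% had no overlap of Het and KO in either direction. Unadjusted p-values were below 0.05 for *Foxp1*, *Foxp4*, *Casz1* and *Pou2f2*, as for 29.7% of all genes. The share of all genes that was called under each alternative serves as the background for the calls given below. It was 11.5% with DESeq2, 7.28% with RLE and 7.29% with upper-quartile normalization, 4.51% with no filter, 9.14% with at least 10 counts in every library, 8.38% with only Het and KO in the fit, 6.88% with the replicate number as a block, 7.61% with robust spread, 11.1% by adjusted p alone and 1.08% by glmTreat, which tests against the fold limit. It was 6.23%, 1.93% and 2.49% without Het1, Het2 and Het3, and 6.12%, 3.06% and 8.39% without KO1, KO2 and KO3.

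**Figure D1:**
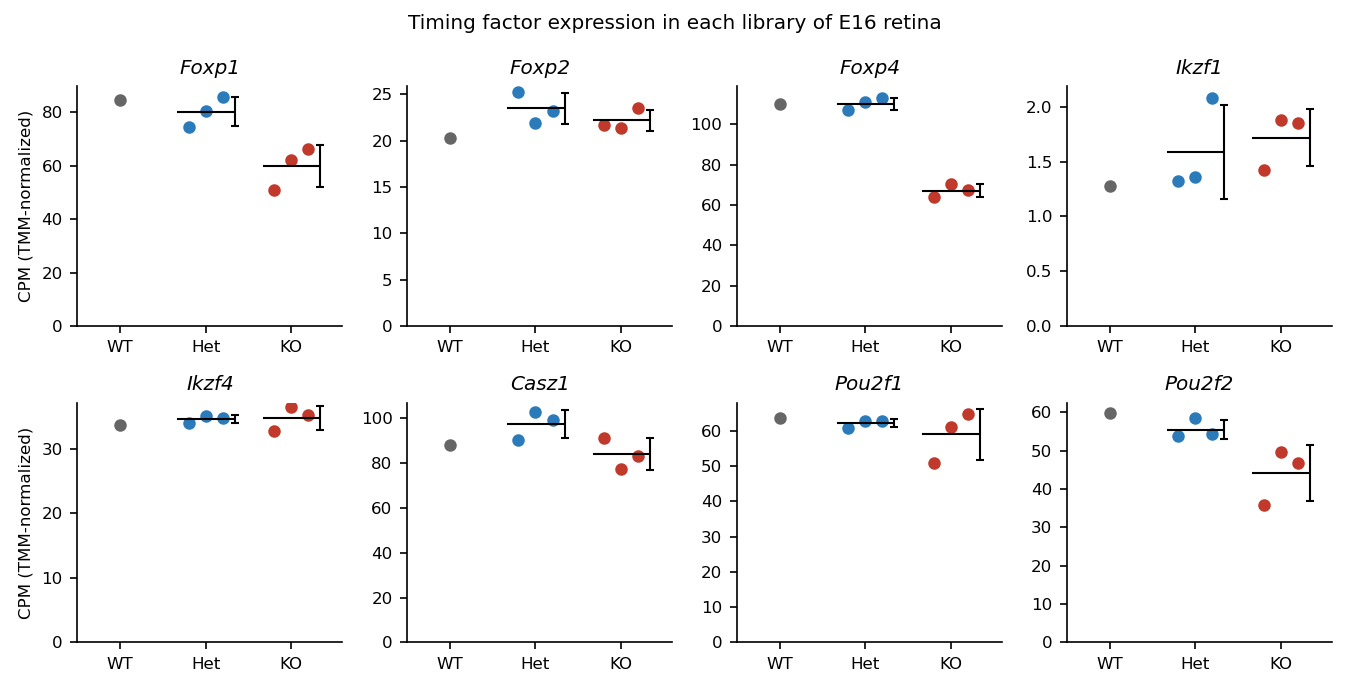
Each panel plots the TMM-normalized expression (CPM, linear axis from 0) of 1 of the 8 factors in each library, with WT in grey, Het in blue and KO in red, a horizontal line at the group mean and a bar of ± 1 SD (n = 3). The 3 KO libraries of *Foxp4* sit between 63.7 and 70.1 CPM, below all 3 Het libraries at 107 to 113 CPM, whereas the Het and KO libraries of *Foxp2*, *Ikzf1*, *Ikzf4*, *Casz1* and *Pou2f1* overlap.

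*Foxp4* changed most clearly among the *Foxp* genes, which encode forkhead proteins that form dimers with one another and repress transcription. *Foxp4* (ENSMUSG00000023991.16; GRCm38, chromosome 17, 47867133 to 47924645, minus strand, protein-coding) was at 110 CPM in WT and at 107, 111 and 113 CPM in Het1, Het2 and Het3. It was at 63.7, 70.1 and 67.3 CPM in KO1, KO2 and KO3. All KO libraries were thus low, the groups did not overlap, and WT lay within the Het range. The mean was 110 ± 2.82 CPM in Het and 67.0 ± 3.20 CPM in KO (SD, n = 3 each), so that KO stood at 60.6% of Het. The log2 fold change was -0.72 (standard error 0.0422, 95% interval -0.82 to -0.62, edgeR adjusted p = 0.00140), which placed it 13th of all genes tested by p-value. It was called under all 16 alternatives, with log2 fold changes between -0.76 and -0.69 and a value of -0.74 without Het1. The exact two-sided permutation test gave p = 0.1, which is the smallest that 3 libraries against 3 allow.

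*Foxp1* changed by less and with more spread. This gene (ENSMUSG00000030067.17; chromosome 6, 98925338 to 99522721, minus strand, protein-coding, 31 annotated transcripts) is expressed in early progenitors and is also known for its role in neurons and lymphocytes. Its level was 84.5 CPM in WT, with the Het libraries at 74.6, 80.4 and 85.6 CPM and the KO libraries at 50.9, 62.2 and 66.4 CPM. KO1 was the lowest, the groups did not overlap, and WT again lay within the Het range. KO stood at 74.6% of Het, and the log2 fold change was -0.42 (95% interval -0.66 to -0.18, edgeR adjusted p = 0.0460, exact permutation p = 0.1). The call was close to its limit: it held in 10 of 16 alternatives and was lost without Het1 (-0.47, adjusted p = 0.0552), Het2 (-0.42, adjusted p = 0.125), Het3 (-0.37, adjusted p = 0.140) or KO2 (-0.45, adjusted p = 0.104), and with robust spread or by glmTreat. The direction was negative in all 16, from -0.50 to -0.32.

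*Foxp2*, the family member best known for vocal learning and for marking a subset of ganglion cells, was at 20.3 CPM in WT, with the Het libraries at 25.3, 21.9 and 23.2 CPM and the KO libraries at 21.7, 21.4 and 23.5 CPM (ENSMUSG00000029563.16; chromosome 6, 14901349 to 15441977). The groups overlapped and WT was below both. Its log2 fold change of -0.08 had a 95% interval from -0.24 to 0.08 (edgeR adjusted p = 0.449), which leaves out the values estimated for *Foxp1* and *Foxp4*. This interval overlaps that of *Foxp1* (-0.66 to -0.18), and whether the 2 genes differ was not tested. Without Het1, the highest library for *Foxp2*, its value was -0.02.

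*Ikzf1* was by far the least abundant of the 8. Its protein is best known from lymphocyte development, and in the early retina it favours early-born cell types. *Ikzf1* (ENSMUSG00000018654.17; chromosome 11, 11685003 to 11772926) had 190 counts in the WT library, 225, 162 and 316 in the Het libraries, and 188, 248 and 246 in the KO libraries. These corresponded to 1.28 CPM in WT, 1.32, 1.36 and 2.08 CPM in Het, and 1.42, 1.88 and 1.85 CPM in KO. The groups overlapped, and the highest library was Het3. At 0.11, its log2 fold change had the widest interval of the 8, from -0.42 to 0.64 (edgeR adjusted p = 0.767), so that it reached past the 1.2-fold limit in both directions at this depth and spread. It was -0.01 without Het1 and 0.36 without Het3. Blood cells and microglia are another known source of *Ikzf1*. The summed level of 12 microglia and blood cell markers was 57.8 CPM in WT, with the Het libraries at 58.0, 54.0 and 76.1 CPM and the KO libraries at 77.3, 106 and 91.2 CPM, with none of the 12 at 0. Het3 was the highest Het library and KO2 the highest KO library for both, although KO2 and KO3 were nearly equal for *Ikzf1*. Het1 and Het2 stood in opposite order for the gene and the markers. Of these markers 11 of 12 had positive log2 fold changes, with a median of 0.56, and *Ptprc* (CD45, 0.70) and *Cx3cr1* (0.71) were called higher in KO by edgeR, while DESeq2 called 10 of the 12. Their part in the *Ikzf1* level was not tested.

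*Ikzf4* (Eos), a family member expressed in progenitors and known for cone and Müller glia production, had the smallest log2 fold change of the 8. Its level was 33.6 CPM in WT, with the Het libraries at 33.9, 35.1 and 34.8 CPM and the KO libraries at 32.8, 36.4 and 35.2 CPM (ENSMUSG00000002578.15; chromosome 10, 128630843 to 128645991). The KO libraries spanned the Het range on both sides. KO differed from Het by a log2 fold change of 0.01 with a 95% interval from -0.10 to 0.12 (edgeR adjusted p = 0.906), so that any change was under the 1.2-fold limit by this interval. It was -0.01 without Het1.

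*Casz1*, the middle to late factor, did not pass the test. This zinc finger gene (ENSMUSG00000028977.16; chromosome 4, 148804429 to 148954889) was at 88.0 CPM in WT, with the Het libraries at 90.6, 103 and 99.3 CPM and the KO libraries at 91.5, 77.5 and 83.3 CPM. KO2 and KO3 were below all Het libraries but KO1 was above Het1, so the groups overlapped, and WT lay below the Het range. Between Het and KO the log2 fold change was -0.22 (95% interval -0.39 to -0.04, edgeR unadjusted p = 0.0214, adjusted p = 0.103, exact permutation p = 0.2). It ranged from -0.28 to -0.16 over the 16 alternatives, was -0.27 without Het1, and was called in 0 of them. By DESeq2 the adjusted p was 0.0183, with a fold change of -0.22 that stayed inside the 1.2-fold limit. No setting gave a higher level of *Casz1* in KO.

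The POU factors bind the octamer motif and are known for favouring cones over rods, in part by holding back the rod gene *Nrl*. *Pou2f1* (ENSMUSG00000026565.18; chromosome 1, 165865154 to 166002678) was at 63.7 CPM in WT, with the Het libraries at 60.7, 62.8 and 62.8 CPM and the KO libraries at 50.8, 61.1 and 64.8 CPM. The KO libraries lay on both sides of the narrow Het range, with KO1 below it. The log2 fold change was -0.08 (95% interval -0.28 to 0.13, edgeR adjusted p = 0.581), with -0.09 without Het1 and 0.02 without KO1. *Pou2f2* (ENSMUSG00000008496.19; chromosome 7, 25087344 to 25179726) was at 59.7 CPM in WT, with the Het libraries at 53.8, 58.4 and 54.3 CPM and the KO libraries at 35.9, 49.6 and 46.8 CPM. Every KO library was below every Het library, and WT was above both ranges. KO stood at 79.5% of Het, and the log2 fold change was -0.33 (95% interval -0.61 to -0.06, edgeR adjusted p = 0.114, exact permutation p = 0.1). *Pou2f2* was called by DESeq2 alone of the 16 alternatives (-0.34, adjusted p = 0.00851). Its values from leaving out single libraries ran from -0.43 to -0.20, the latter without KO1, and it was -0.35 without Het1.

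KO1 was the lowest KO library for *Foxp1*, *Foxp4*, *Pou2f1*, *Pou2f2*, *Ikzf1* and *Ikzf4*, and the highest for *Casz1*. It was not the library with the least *Ptbp1*, which was KO2. KO1 was made from 4 retinas, as was KO2.

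**Figure D2:**
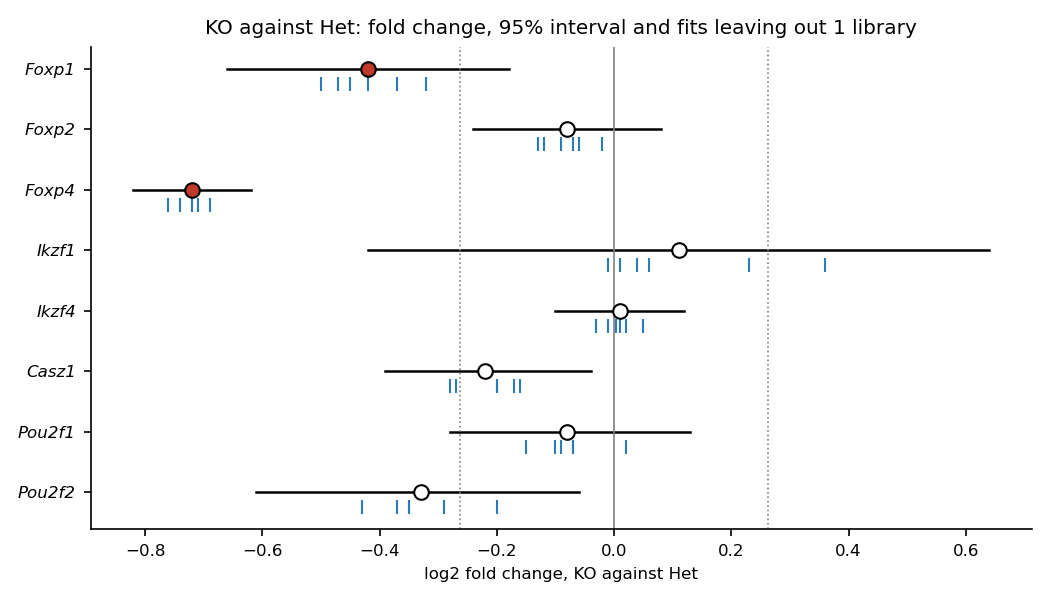
For each of the 8 factors the circle is the log2 fold change of KO against Het from edgeR, filled red where called, the black line is its 95% interval, and the blue ticks below it are the 6 fits that each left out 1 library. Dotted lines mark the 1.2-fold limit. The interval of *Foxp4* (-0.82 to -0.62) lies wholly beyond the limit, that of *Foxp1* (-0.66 to -0.18) reaches inside it, and that of *Ikzf4* (-0.10 to 0.12) lies wholly within it.

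Levels of different genes were compared per kilobase of annotated exon (CPM per kb). In Het the order was *Foxp4* at 22.4 ± 0.572 CPM per kb, *Casz1* at 7.99 ± 0.517, *Pou2f2* at 6.73 ± 0.300, *Foxp1* at 5.83 ± 0.399, *Ikzf4* at 5.77 ± 0.103, *Pou2f1* at 3.74 ± 0.0715, *Foxp2* at 1.44 ± 0.104 and *Ikzf1* at 0.275 ± 0.0740 CPM per kb (SD, n = 3 each). Only *Foxp1* and *Ikzf4* overlapped among neighbours in this order. In KO *Foxp4* still led at 13.6 ± 0.649 CPM per kb and *Casz1* came next at 6.88 ± 0.572, but *Ikzf4* at 5.81 ± 0.312 now stood above *Pou2f2* at 5.35 ± 0.883 and *Foxp1* at 4.35 ± 0.585. The neighbours *Ikzf4* and *Pou2f2*, *Pou2f2* and *Foxp1*, and *Foxp1* and *Pou2f1* overlapped in KO. *Foxp2* and *Ikzf1* were lowest in both genotypes. In WT *Pou2f2* (7.24 CPM per kb) and *Casz1* (7.20 CPM per kb) were nearly equal. With the longest transcript as the length, *Foxp1* stood above *Pou2f2* in both genotypes and its Het range overlapped that of *Casz1*.

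*Foxp4* thus made up most of the *Foxp* expression per length. Its share of the summed level of the 3 *Foxp* genes (CPM per kb) was 75.5 ± 0.455% in Het and 70.5 ± 1.77% in KO, without overlap. The share of *Foxp1* was 19.6 ± 0.753% in Het and 22.5 ± 1.83% in KO, and that of *Foxp2* was 4.84 ± 0.466% and 7.04 ± 0.465% (SD, n = 3 each), although the mean level of neither gene was higher in KO. The summed *Foxp* level was 29.7 ± 0.897 CPM per kb in Het and 19.3 ± 1.18 CPM per kb in KO, which is 65.0% of Het. These shares and sums depend on the length used, and their SDs cover only the spread between libraries. With the longest transcript, *Foxp4*, *Foxp1* and *Foxp2* were at 27.6, 11.2 and 3.47 CPM per kb in Het. In KO they were at 16.8, 8.34 and 3.28 CPM per kb. *Pou2f2* held 64.3 ± 0.833% of the summed *Pou2f1* and *Pou2f2* level in Het and 60 ± 1.8% in KO, also without overlap. *Ikzf4* held 95.5 ± 1.14% of the summed *Ikzf1* and *Ikzf4* level in Het and 95.1 ± 0.479% in KO, and the groups overlapped.

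The balance of early against middle to late factors separated the genotypes for *Foxp4* over *Casz1* and not for *Foxp1*, *Foxp2* or *Ikzf1* over *Casz1*. The ratio of *Foxp4* to *Casz1* (both as CPM per kb) was 3.11 in WT, 2.94, 2.68 and 2.82 in Het, and 1.73, 2.24 and 2.0 in KO, so all KO libraries were lower. The ratio of *Foxp1* to *Casz1* was 0.854 in WT, 0.732, 0.694 and 0.766 in Het, and 0.494, 0.713 and 0.709 in KO. Here only KO1 was below all Het libraries, and the groups overlapped. The ratio of *Ikzf1* to *Casz1* was 0.0307 in WT, 0.0309, 0.0279 and 0.0444 in Het, and 0.0328, 0.0514 and 0.0469 in KO, also with overlap and with 2 of 3 KO libraries above all Het libraries. *Foxp2* over *Casz1* was 0.173 in WT, 0.209, 0.159 and 0.174 in Het, and 0.177, 0.206 and 0.211 in KO. It overlapped too, with a higher mean in KO (0.198) than in Het (0.181). Within the POU pair, *Pou2f2* over *Pou2f1* was 1.89 in WT, 1.79, 1.87 and 1.74 in Het, and 1.42, 1.64 and 1.46 in KO, without overlap. The ratio of *Foxp4* to *Foxp1* was 3.85 ± 0.167 in Het and 3.15 ± 0.334 in KO (SD, n = 3 each) and did not overlap either. These ratios are descriptions, and no test was made on them.

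**Figure D3:**
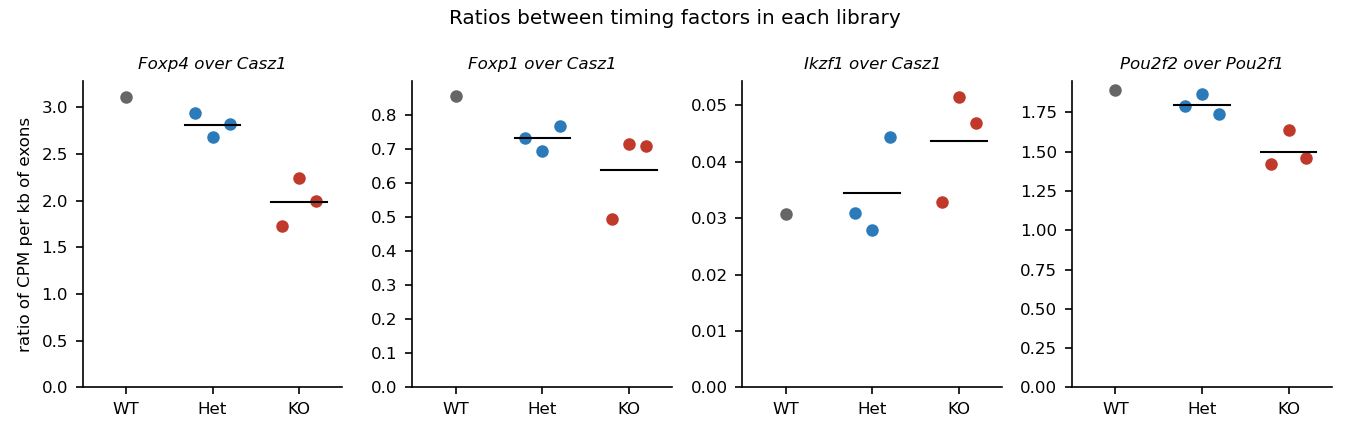
Each panel plots the ratio of 2 factors' levels (CPM per kb over CPM per kb, linear axis from 0) in each library, with WT in grey, Het in blue, KO in red and a line at the mean of the 3 libraries. *Foxp4* over *Casz1* is 2.68 to 2.94 in Het and 1.73 to 2.24 in KO, and *Pou2f2* over *Pou2f1* also separates the groups, while *Foxp1* and *Ikzf1* over *Casz1* do not.

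Because *Foxp1* and *Foxp4* were the called genes, their promoter sequences are shown, from 250 bases before to 50 bases after a RefSeq start site (GRCm38.p6). RefSeq windows matched 6 of the 8 factors, 12 windows in all, with *Foxp2* and *Ikzf4* unmatched. Capitals mark matches on either strand to the octamer bound by POU2F factors (ATGCAAAT), to a forkhead core motif (TGTTTAC), to an Ikaros core motif (TGGGAA), to the short motif CCAAT bound by NF-Y, and to the E-box motif (CANNTG) bound by basic helix-loop-helix factors. No match of one motif overlaps a match of another in the windows shown.
Foxp4 promoter, chr17:47924583-47924882 (−): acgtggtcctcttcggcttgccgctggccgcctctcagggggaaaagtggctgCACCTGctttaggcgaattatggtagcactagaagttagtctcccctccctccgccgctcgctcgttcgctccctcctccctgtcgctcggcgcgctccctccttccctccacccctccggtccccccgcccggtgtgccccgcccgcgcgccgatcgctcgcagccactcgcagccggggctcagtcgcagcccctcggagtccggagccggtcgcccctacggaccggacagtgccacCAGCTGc
Foxp1 promoter of a downstream start site, chr6:99028249-99028548 (−): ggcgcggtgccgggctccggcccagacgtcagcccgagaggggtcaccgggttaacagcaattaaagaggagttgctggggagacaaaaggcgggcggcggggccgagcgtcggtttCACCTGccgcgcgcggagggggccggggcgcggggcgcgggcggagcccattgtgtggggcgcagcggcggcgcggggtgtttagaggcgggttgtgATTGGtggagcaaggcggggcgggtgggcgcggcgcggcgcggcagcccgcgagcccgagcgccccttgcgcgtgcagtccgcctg

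The *Foxp4* window held 2 E-boxes, at -197 and 43 with the start site at 0, and no match to the other motifs marked. Its GC content was 70.3%, against a median of 52.7% over the 32851 windows searched. *Foxp1* has 3 RefSeq windows, of which the most GC-rich is shown. It held an E-box at -133, a CCAAT match on the other strand at -36, and a GC content of 75.3%. The GC content of the windows not shown was 60.3%, with 1 E-box, and 48.7%, with 3 E-boxes and an Ikaros match. Across the 12 windows, 0 held the octamer and 0 the forkhead core, which are present in 1.74% and 3.65% of all windows. The Ikaros core was in 4 of 12, against 25.6% of all windows, in *Casz1* (both windows), *Foxp1* and *Pou2f1*. An E-box was in 7 of 12, against 72.3%, CCAAT in 2 of 12, against 37.4%, and the GC-box GGGCGG, not marked in capitals, in 6 of 12, against 35.7%. These counts describe letters in the windows.

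Genes that overlap the 8 factors in the annotation were followed because reads of an overlapping pair may be assigned to either. The overlap with appreciable counts was in *Pou2f2*: the long noncoding RNA gene *D930028M14Rik* (chromosome 7, 25152457 to 25156627) lies within *Pou2f2* on the opposite strand, with 0 shared exon bases. It was at 21.6 CPM in WT, with the Het libraries at 19.6, 21.5 and 23.1 CPM and the KO libraries at 12.6, 15.9 and 14.8 CPM. All KO libraries were lower than all Het libraries, and it was called, at a log2 fold change of -0.57 (standard error 0.102, edgeR adjusted p = 0.0212). In both *Pou2f2* and *D930028M14Rik* KO1 was the lowest and KO2 the highest KO library. The antisense gene *Gm13205*, which shares 122 exon bases with *Casz1*, was at 1.09 ± 0.0564 CPM in Het and 0.669 ± 0.343 CPM in KO (log2 fold change -0.70, edgeR adjusted p = 0.239). *Cd247*, which shares 3007 exon bases with *Pou2f1*, was at 0.232 CPM in Het and 0.262 CPM in KO (log2 fold change 0.17, edgeR adjusted p = 0.689). Of the remaining overlapping genes, *Gm26876* (over *Ikzf4*) and *Gm12000* (over *Ikzf1*) were tested and not called.

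The 10 tested genes on each side of the 8 factors were then examined. Of these 160 neighbours, 10 were called, or 6.25% beside 7.22% of all genes tested. *Foxp4* had 4 called genes among its 20 neighbours, all lower in KO, against 0 to 2 for the other 7 factors. The 4 were *Mdfi*, the next tested gene, which encodes an inhibitor of myogenic factors (log2 fold change -1.01, edgeR adjusted p = 0.0438), *Bysl*, a ribosome assembly factor (-0.49, adjusted p = 0.0490), *Ccnd3*, the cell cycle gene of cyclin D3 (-0.41, adjusted p = 0.00480), and *Usp49*, a ubiquitin protease (-0.36, adjusted p = 0.0430). *Ccnd3* was at 73.7 CPM in WT, with the Het libraries at 79.4, 78.3 and 84.2 CPM and the KO libraries at 59.0, 62.6 and 60.6 CPM, without overlap. All 4 lie on the side of lower coordinates (chromosome 17, 47505051 to 49455435 for the 20 neighbours). Of the 20 neighbours 16 had negative log2 fold changes, with a median of -0.25, beside 10200 of the 20019 genes tested. Some of the 16 were near the floor, such as *Tspo2* and *Unc5cl* at 0.0437 and 0.0783 CPM in Het. *Apobec2* was high in Het1 alone, at 4.09 CPM against 0.537 and 0.540 CPM in Het2 and Het3. Farther out on that side, *Taf8*, a subunit of the general transcription factor TFIID (-0.50), *Guca1b*, a photoreceptor guanylate cyclase activator (-3.20, and -2.13 without Het1), the mitochondrial ribosomal gene *Mrps10* (-1.56) and the ubiquitin ligase gene *Ubr2* (-0.41) were also called lower. *Guca1b* was low in every library and highest in Het1, at 1.90 CPM against 0.361 and 0.521 CPM in Het2 and Het3 and 0.0528 to 0.150 CPM in KO, and it kept its call without Het1 but not without any other single library. *Mrps10* was at 18.4, 20.8 and 19.2 CPM in Het1 to Het3 and at 6.37, 6.71 and 6.67 CPM in KO1 to KO3. Of the 20 genes on each side, 8 of 40 were called, all lower and all at lower coordinates, beside 3.21% of all genes tested called lower. *Nfya*, an abundant neighbour on the other side, was at 109 ± 2.74 CPM in Het and 104 ± 2.22 CPM in KO and was not called. The number called among the 20 neighbours was 1 without Het2, Het3 or KO2, and 2 without Het1. *Ccnd3*, *Taf8*, *Mrps10* and *Ubr2* kept their calls in every fit that left out 1 library. Among those fits, *Mdfi* was called only without KO3, *Bysl* only without KO1 or KO3, and *Usp49* only without Het1 or KO1. These genes other than the 4 of the fixed neighbourhood were chosen after their values were seen, and whether the *Foxp4* change and those of its neighbours are linked was not tested.

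**Figure D4:**
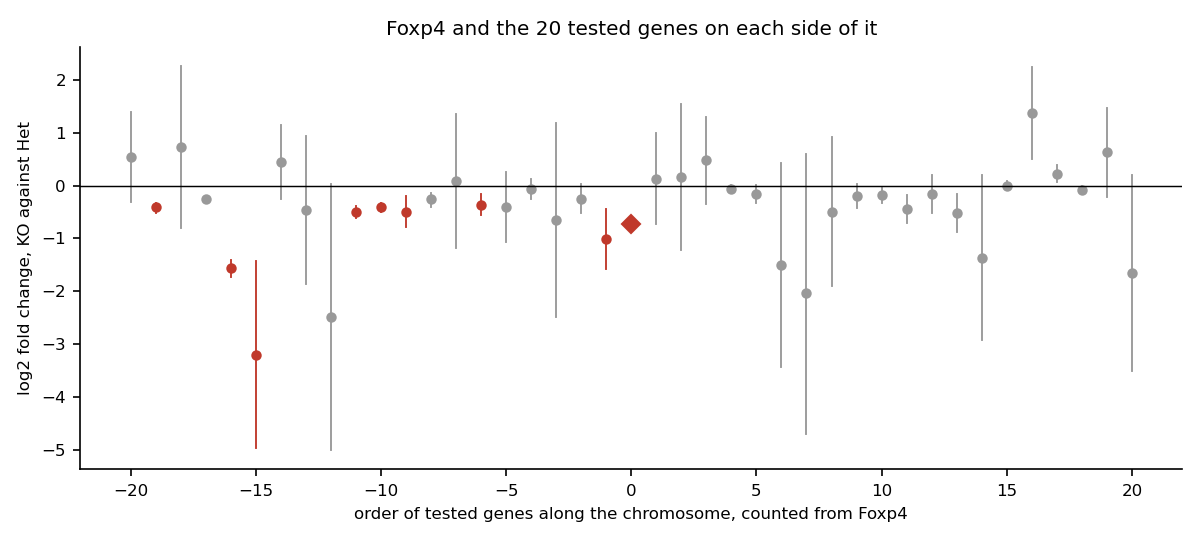
The log2 fold change of KO against Het (points, with 95% intervals) is plotted for *Foxp4* (diamond at 0) and the 20 tested genes on each side, in their order along the chromosome, with called genes in red. The 8 called neighbours are all lower in KO and all lie to the left of *Foxp4*, which itself is at -0.72.

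The genes whose profile over the 7 libraries was most like that of a called factor were found among 10050 genes with a mean of at least 10 CPM, by the root mean square difference of centred log2(CPM + 1) values. For *Foxp4* these were *Isl1* (difference 0.0446), *Eya2* (0.0592) and *Nhlh1* (0.0715). *Isl1*, a LIM homeobox gene expressed in ganglion cells and other early neurons, was at 127 CPM in WT, with the Het libraries at 117, 125 and 122 CPM and the KO libraries at 74.5, 80.3 and 72.4 CPM. For *Foxp1* they were *Cers4*, a ceramide synthase gene (0.0401), *Bche* (0.0445), which encodes butyrylcholinesterase, and *Msi2*, an RNA-binding protein gene of neural progenitors (0.0452). *Msi2* was at 276 ± 13.6 CPM in Het and 199 ± 23.0 CPM in KO (SD, n = 3 each). The differences compare with an SD over the libraries of 0.384 for *Foxp4* and 0.270 for *Foxp1* on the same scale.

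The closest relatives outside the 8 were low or did not pass the test. *Ikzf2* (Helios) was the most abundant, at 9.99 ± 0.423 CPM in Het and 11.2 ± 1.90 CPM in KO, and *Ikzf5* was at 6.04 ± 0.116 and 5.60 ± 0.141 CPM (SD, n = 3 each). *Foxp3* and *Ikzf3*, both known from lymphocytes, were at 0.184 and 0.226 CPM in Het. Of these 4 tested genes 0 were called by edgeR, 0 by DESeq2, and 0 had an unadjusted p below 0.05, and *Pou2f3* did not pass the expression filter.

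Several factors of this kind act with co-repressor complexes. Ikaros proteins recruit the NuRD complex, FOXP1 and FOXP2 are known to bind CtBP, and *Casz1* is known to work with NuRD and Polycomb. Of 19 genes of the NuRD, CtBP and Sin3 complexes, *Chd5*, a neuronal NuRD ATPase, was called higher in KO (log2 fold change 0.37, edgeR adjusted p = 0.0243) and the other 18 were not called. The most abundant, *Chd4*, was at 902 ± 12.3 CPM in Het and 849 ± 30.3 CPM in KO (-0.09). The median of this list was 0.02. Of 25 Polycomb genes, *Phc3* was called higher (0.27, edgeR adjusted p = 0.0438) and *Ring1* lower (-0.27, adjusted p = 0.0390), with a median of 0.04. *Chd5* was not called without Het2, Het3 or KO2. The Polycomb count was 1 without Het1 or KO2 and 0 without Het2, Het3 or KO3. These shares, 5.26% and 8%, stand beside 7.22% of all genes tested. By adjusted p alone, with no limit on the fold, 8 of the 25 Polycomb genes (32%, beside 11.1% of all genes) passed, 6 lower and 2 higher, with log2 fold changes of 0.14 to 0.27 in size. Among these were *Bmi1* (0.18) and *Pcgf2* (-0.23), subunits of Polycomb repressive complex 1. In the same list 15 of 25 (60%, beside 29.7%) had an unadjusted p below 0.05, and in 16 of 25 (64%, beside 36.3%) Het and KO did not overlap.

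Genes that mark early and late progenitor stages were read beside the factors. Of 12 early temporal genes, 5 were called lower and all 12 had negative log2 fold changes, with a median of -0.37. *Hmga2*, a chromatin protein gene of the let-7 and Lin28 pathway, was at 42.8, 46.5 and 49.0 CPM in Het1 to Het3 and at 30.6, 31.1 and 31.1 CPM in KO1 to KO3 (-0.58, edgeR adjusted p = 0.00350). *Igf2bp2* and *Igf2bp3*, RNA-binding proteins of early progenitors, were each at -0.40 (edgeR adjusted p = 0.00531 and 0.00679), and *Fgf15*, the most abundant of the list, was at -0.49. *Foxn4*, a forkhead gene that promotes amacrine and horizontal cells, was at 175 ± 6.25 CPM in Het and 170 ± 1.04 CPM in KO and was not called. Of 10 late temporal genes, 7 were called higher, with a median of 0.40, among them *Nfib* (0.47) and *Nfia* (0.33), nuclear factor I genes required in late progenitors. *Dkk3*, the most abundant late gene, was at -0.17 and was not called. Both lists hold genes that the study itself named on these samples, so their direction is not independent evidence. The early count was 3 without Het2. The late count was 1 without Het2 or Het3, 3 without KO2, and 4 without KO1 or KO3.

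Genes of the cone and rod fate decision, on which the POU and Ikaros factors act, were divided. *Nrl*, the rod determinant that *Pou2f1* and *Pou2f2* are known to restrain, was at 10.5, 8.96 and 8.30 CPM in Het1 to Het3 and at 32.8, 20.4 and 20.8 CPM in KO1 to KO3 (log2 fold change 1.41, edgeR adjusted p = 0.0120). Whether the *Nrl* level is linked to those of the POU factors was not tested. *Nr2e3*, a rod factor downstream of *Nrl* (3.34), and *Prdm1*, which favours photoreceptors over bipolar cells (0.69), were called higher as well. *Thrb* (-0.01) and *Rxrg* (-0.04), which mark cones, and *Onecut1* (-0.17) and *Onecut2* (-0.19), which mark their precursors and horizontal cells, were not called, nor was the most abundant, *Otx2* (0.12). In all, 3 of 9 were called, with a median of 0.12, and the number was 1 without Het2.

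**Figure D5:**
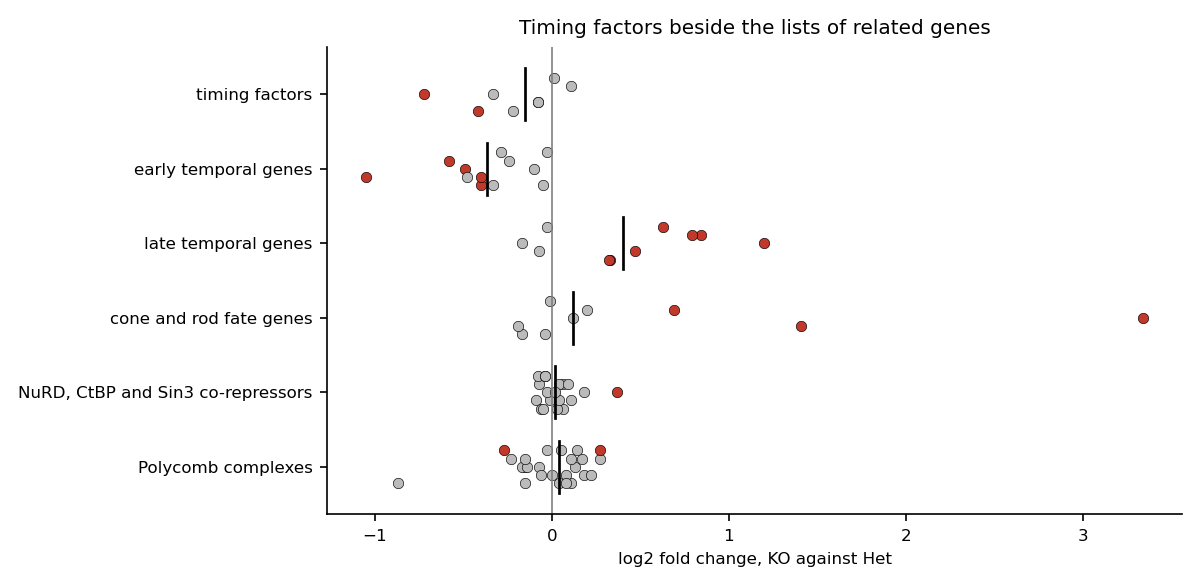
Every tested gene of each list is 1 point at its log2 fold change of KO against Het, red where called, with a black line at the list's median. The 8 timing factors have a median of -0.15, between the early temporal genes (-0.37) and the co-repressor and Polycomb lists (0.02 and 0.04), while the late temporal genes lie at 0.40.

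Cell type markers moved with these values as follows. Of the 7 progenitor markers 0 were called by edgeR or DESeq2 and 3 had an unadjusted p below 0.05 (median -0.05). The eye field gene *Six6* passed by adjusted p alone (-0.20, edgeR adjusted p = 0.0258), and 5 of the 7 were negative. Ganglion cell markers had a summed level of 3440 to 3590 CPM in Het and 2870 to 3270 CPM in KO. Among these 12, *Isl1* and *Gap43* (-0.42) were called lower by edgeR, and 5 of 12 were called by DESeq2. The log2 fold changes of this list were divided, 9 negative and 3 positive, with a median of -0.15. An unadjusted edgeR p was below 0.05 for 8 of 12 (66.7%, beside 29.7% of all genes tested). In 8 of 12 Het and KO did not overlap (66.7%, beside 36.3%), and both counts include *Nefl*. *Pou4f2* (-0.29), *Ebf3* (-0.30), *Sncg* (-0.27) and *Stmn2* (-0.19) were lower without overlap and were not called. The neurofilament gene *Nefl* went up (0.21, not called), from 286, 337 and 328 CPM in Het to 369, 388 and 343 CPM in KO. *Pou4f3* (0.03) and *Ebf1* (0.00) hardly differed. Amacrine and horizontal cell markers summed to 531 to 573 CPM in Het and 692 to 753 CPM in KO. Of these, 4 of 10 were called higher by edgeR, beside 4.01% of all genes tested, and 5 were called by DESeq2, beside 11.5%. All 10 were positive. All 10 had an unadjusted edgeR p below 0.05, beside 29.7%, and in all 10 Het and KO did not overlap, beside 36.3%. Of 8 endothelial markers, *Kdr*, which progenitors also express, was called higher (0.44), but the median of the list was -1.43 and 5 of 8 were negative. These 5 (*Pecam1*, *Cdh5*, *Tek*, *Tie1* and *Emcn*) ran from -2.17 to -1.40 and were not called by edgeR. They summed to 17.7, 8.07 and 24.0 CPM in the Het libraries and to 2.57, 1.73 and 11.2 CPM in the KO libraries, with overlap. DESeq2 called 2 of the 8 endothelial markers. Of 11 muscle markers 0 were called by edgeR or DESeq2, with 8 at an unadjusted p below 0.05, beside 29.7% of all genes tested. These markers were high in Het1 alone, where they summed to 348 CPM against 9.17 to 12 CPM in every other library. Of 9 lens and pigmented cell markers 0 were called by edgeR and 1 by DESeq2, with 4 at an unadjusted p below 0.05. The part of these cell types in the levels of *Foxp1*, *Foxp4* and *Pou2f2* was not tested.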

How the data were processed

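Reads were aligned by the authors to GRCm38 with STAR within rMATS-turbo (GENCODE Release M10), and featureCounts gave the deposited values, raw counts per gene without normalization. Versions, strand and the handling of reads with several matches are not given in the sources used here. RNA extraction is TRIzol in the labels and a column kit in the methods.

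Genes passing filterByExpr on genotype were fitted in edgeR 4.0.16 (R 4.3.3) after TMM normalization (factors 0.988 to 1.03), in a quasi-likelihood model of all 7 libraries with genotype as the only term. The contrast was KO against Het (common dispersion 0.0460, a biological coefficient of variation of 21.5%). A call needed a Benjamini-Hochberg adjusted p below 0.05 over all tested genes and a log2 fold change beyond 0.263 in size, as in the study. Standard errors are the log2 fold change over the square root of F. Permutation tests used log2(CPM + 1). The code was tested on simulated data. Replicates were checked for copies, and every pair differed by at least 14.0 times the counting variance.

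Coordinates and exon lengths come from GENCODE M21 on GRCm38, which places 19931 of the tested genes. The genes named are the 8 factors, *Ptbp1*, genes that overlap a factor, the 3 genes most like each called factor, and of each list its most abundant gene and at most 4 called genes. Further genes were named after their values were seen. The factors and lists were chosen with earlier results of these data known. The alternatives were DESeq2 1.42.0, RLE or upper-quartile scaling, other filters (none, or 10 counts in each library), a fit without WT, a replicate block, robust spread, adjusted p alone, glmTreat, single libraries left out, the longest transcript as length, and other numbers of neighbours. The count of *Foxp4* neighbours under these settings, their values without single libraries and sums over parts of marker lists were added after seeing the data. The result for 1 progenitor marker is not reported here, so the counts and sums of that list do not cover it, and splicing and single-cell data were not analysed here.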

Additional observations from a re-analysis of the deposited data

How the results depend on the processing

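The *Foxp4* call held in all 16 alternatives. *Foxp1* kept its value of -0.42 but lost its call with robust spread (adjusted p = 0.0546) and under glmTreat (0.359), so that 1 of the 8 factors was called in each, and leaving out single libraries gave -0.50 to -0.32. *Pou2f2* was called by DESeq2 alone (-0.34), and its values without single libraries ran from -0.43 to -0.20. *Ikzf1* was -0.01 without Het1, *Ikzf4* was -0.01 without Het1 and -0.03 without KO2, and *Pou2f1* was 0.02 without KO1, all changes of sign in values that did not pass the test. Without single libraries *Ikzf1* ran from -0.01 to 0.36, *Ikzf4* from -0.03 to 0.05 and *Pou2f1* from -0.15 to 0.02. Over all genes, 2221 were called by adjusted p alone and 217 by glmTreat, and 386 to 1674 without single libraries, with 386 without Het2, 496 without Het3 and 612 without KO2. Without single libraries 1 to 2 of the factors were called, 0 to 1 co-repressor genes, 0 to 2 Polycomb genes, 3 to 6 early, 1 to 5 late and 1 to 3 cone and rod genes. The Polycomb count was 1 with at least 10 counts in every library, 1 with the replicate block, 8 by adjusted p alone and 0 under glmTreat, which also called 0 co-repressor genes, 1 early and 1 late gene. By the longest transcript, Het levels were 11.2 (*Foxp1*), 3.47 (*Foxp2*), 27.6 (*Foxp4*), 6.72 (*Ikzf4*), 12.3 (*Casz1*), 4.76 (*Pou2f1*) and 7.82 (*Pou2f2*) CPM per kb. With 5 neighbours on each side 3.75% of neighbours were called. *Foxp4* had 1 called neighbour with the replicate block and 0 under glmTreat. The cause of these differences was not tested.

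Deviations of same-numbered Het and KO libraries from their group means had correlations of -0.232, 0.209 and -0.0251 over 13750 genes. Those of unlike-numbered libraries ran from -0.392 to 0.287. With 3 libraries per group, whose deviations depend on one another, these values cannot decide whether the numbers pair the samples. With the replicate number as a block 1268 genes were called, *Foxp1* (adjusted p = 0.0175) and *Foxp4* among them, and no other factor. *Ikzf1* had fewer counts than the other 7 factors, at 162 to 316 per library, and the widest interval. The parts of depth and of spread between libraries in that width were not tested.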
